A study of Rattus norvegicus with 6 samples.

Results

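The miRNAs described here are 5 of the 775 miRNAs in the deposited count table, chosen by name because their precursors do not pass through both of the usual cutting steps. They are rno-miR-320-3p and rno-miR-484, which come from capped precursors, rno-miR-877 and rno-miR-1224, which are mirtrons, and rno-miR-451-5p, which is made without Dicer. The species prefix is left out below. All 5 have a row in the table, and all 5 had at least 1 count in some library. Small RNA was sequenced from brains of male Sprague-Dawley rats bought at 7 weeks of age, in 6 libraries, 3 for the 2VO group and 3 for 2VO rats treated with tilianin. Every rat in both groups had 2-vessel occlusion (2VO), in which both common carotid arteries are tied off so that blood flow to the brain stays low. The treated rats were given tilianin, a plant flavonoid glycoside, by stomach tube at 40 mg/kg each day for 4 weeks, dissolved in 0.5% CMC-Na. The 2VO rats were given the same vehicle alone at 5 mL/kg over that time. The sources do not say whether each library is 1 rat, so p-values below measure the spread between these libraries only. The labels call the tissue brain, and a legend of the study calls it cortex.

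Most animal miRNAs are cut from a longer transcript in a pair of steps, first in the nucleus by Drosha and then in the cytoplasm by Dicer, and the duplex that results is loaded into an Argonaute protein. Capped precursors such as that of miR-320 skip Drosha because their 5′ end is set by the start of transcription, and they yield mainly the 3p strand. Mirtrons skip Drosha because splicing sets the ends of their hairpin, which is a whole short intron. The hairpin of miR-451 is too short for Dicer and is cut by Argonaute 2 itself, and miR-451 is known above all as an abundant miRNA of red blood cells. These statements are background and were not tested with the libraries.

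Annotated sequences are given for the 4 members with an entry in the sequence table used here, which is from RefSeq on the GRCr8 build. The build behind the deposited counts is not given in the sources used here. In the mature sequences, read 5′ to 3′, capitals mark the seed (bases 2 to 8), which selects targets:
miR-484: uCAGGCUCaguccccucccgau
miR-877: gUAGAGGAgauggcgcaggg
miR-1224: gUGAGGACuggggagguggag
miR-451-5p: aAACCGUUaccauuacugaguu
These 4 seeds differ from each other. Among the listed miRNAs with a RefSeq sequence, miR-344a-5p has the seed of miR-484 and was at 0 counts in all 6 libraries, and no listed miRNA with a RefSeq sequence shares the seed of miR-877, miR-1224 or miR-451-5p. The mature sequences of miR-484, miR-877 and miR-1224 hold 63.6%, 65.0% and 66.7% G and C, against 36.4% in miR-451-5p. miR-320-3p has no entry in the sequence table.

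The hairpins below are shown because the position of the mature miRNA, in capitals, differs between the mirtrons, miR-484 and miR-451:
Mir877: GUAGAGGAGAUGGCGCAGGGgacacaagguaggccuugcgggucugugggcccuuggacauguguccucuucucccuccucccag
Mir1224: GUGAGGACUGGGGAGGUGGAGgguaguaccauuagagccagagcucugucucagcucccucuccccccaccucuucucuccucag
Mir484: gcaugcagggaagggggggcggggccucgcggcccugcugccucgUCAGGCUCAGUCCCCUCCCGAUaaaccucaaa
Mir451a: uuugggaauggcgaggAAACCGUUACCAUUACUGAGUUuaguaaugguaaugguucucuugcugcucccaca
Mir877 lies at chr20:2816284-2816368 on the plus strand and within the extent of Abcf1. Mir1224 lies at chr11:93811291-93811375 on the minus strand and within the extent of Vwa5b2. Both hairpins are 85 bases long, begin with GU and end with AG, the letters at the ends of most introns, and the mature miRNA begins at their first base. Of the 407 annotated rat hairpins that could be read, 2 (0.491%) have all 3 of these features, and they are Mir877 and Mir1224. Hairpin ends are set by annotators, so this describes the annotation.

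Mir484 lies at chr10:1394905-1394981 on the minus strand, between Nde1 and Marf1 and within neither. Its mature miRNA starts at base 46 of 77, on the 3′ side of the hairpin. Mir451a lies at chr10:63459569-63459640 on the plus strand beside Mir144. In the minimum free energy fold, miR-451-5p covers all 4 bases of the terminal loop, which 3 of 670 annotated mature miRNAs (0.448%) do for their own loop. The arms of Mir451a lie 5 bases apart, against a median of 16 bases (quartiles 14 and 18) over 287 hairpins with both arms annotated, and 2 of these hairpins (0.697%), Mir451a among them, have arms that close.

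**Figure D1:**
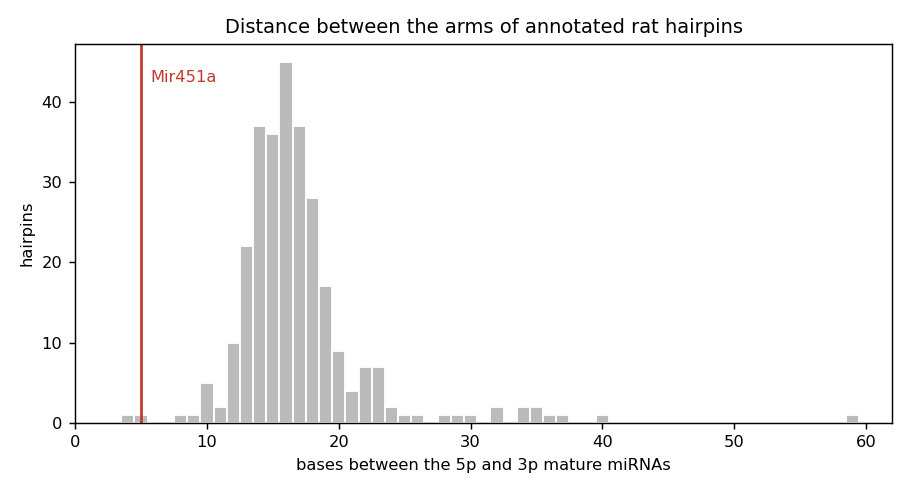
Number of annotated rat hairpins (y axis) by the number of bases between their 5p and 3p mature miRNAs (x axis), for 287 hairpins, with the red line at Mir451a. The median is 16 bases and Mir451a stands at 5 bases, near the low end.

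Facts of the libraries that bear on all members are few. Total counts were 7428890 to 13198776 per library in the 2VO group and 7175872 to 9464216 in the tilianin-treated group. A count of 0 still allows 3 counts, which is 0.227 to 0.418 CPM (counts scaled to the library total), and all such limits and intervals cover counting error only. Across tested miRNAs, tilianin-treated replicate 2 correlated less with the other libraries (Spearman 0.936 to 0.957) than those 5 did among themselves (0.983 to 0.992). Its miR-128-3p, a neuronal miRNA, was at 3885 CPM against 17574 to 28697 CPM elsewhere. This library also had the lowest miR-124-3p, miR-9a-5p and miR-138-5p and the highest miR-338-3p and miR-219a-2-3p. Its miR-124-3p was at 55804 CPM against 74146 to 98573 CPM elsewhere. As examples chosen after their values were seen, miR-10a-5p and miR-10b-5p were at 11292 and 10365 CPM there. Elsewhere they were at 37.2 to 297 and 52.6 to 191 CPM. Of 6 brain markers, 5 had at least 141 counts in every library, and the oligodendrocyte miRNA miR-219a-2-3p had 0 to 6 counts. With edgeR 0 of these 6 markers were called, where 5.73% of all tested miRNAs were. In bulk tissue, fewer cells of a type and less RNA per cell cannot be told apart.

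The 5 members lay far apart in level. Over the 6 libraries the mean was 86.2 CPM for miR-320-3p, 3.15 CPM for miR-877, 0.385 CPM for miR-1224, 0.134 CPM for miR-451-5p and 0.0473 CPM for miR-484. Here and below CPM is scaled with TMM, a correction for composition, unless stated otherwise, and no scaling by length was made since a read covers a whole miRNA. miR-320-3p held 4574 of the 4767 counts of the 5 miRNAs (96.0%). It ranked 168th and miR-877 ranked 333rd of the 454 miRNAs with at least 10 counts in total, and miR-1224 ranked 426th. The ranks set the members beside miR-140-5p (86.3 CPM) and miR-125b-1-3p (86.0 CPM) for miR-320-3p, and beside miR-130b-5p (3.19 CPM) and miR-1839-5p (2.98 CPM) for miR-877, which differ from the members by less than the SD within either group. The neighbours of miR-1224, miR-3596d and miR-192-3p, were at 0.386 and 0.373 CPM.

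The order of the first 3 members was the same everywhere. In all 6 libraries miR-320-3p had more counts than miR-877, by 17.1 to 32.8 times, and miR-877 more than miR-1224, by 3.83 to 18 times. miR-1224 exceeded miR-451-5p in 5 of 6 libraries, with 3 against 4 counts in tilianin-treated replicate 2. miR-451-5p and miR-484 could not be put in order, with each higher in 2 libraries and 2 ties. These are orders of read counts, and efficiencies of ligation and counting were not measured.

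**Figure D2:**
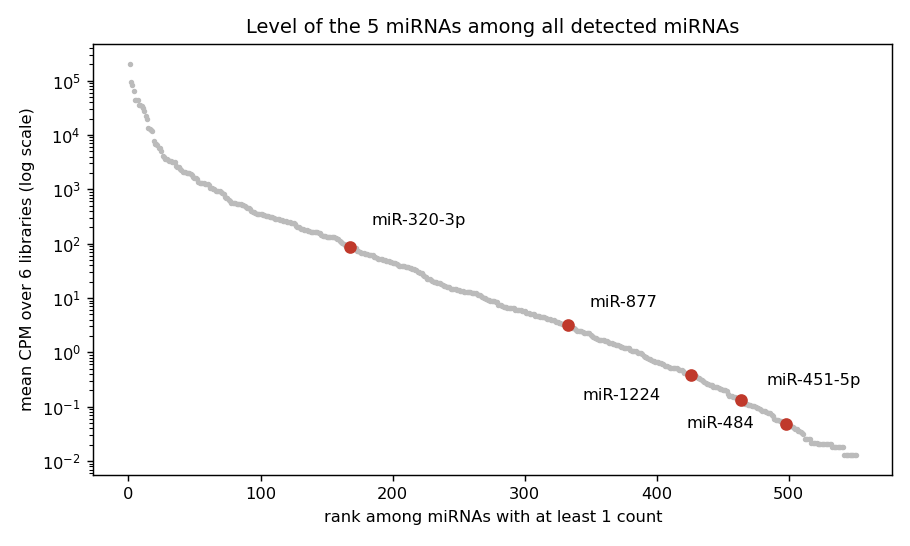
Mean CPM over 6 libraries on a log axis against rank for the miRNAs with at least 1 count, with the 5 members in red. miR-320-3p at 86.2 CPM stands at rank 168 of 551, and miR-451-5p and miR-484 stand near the low end of the curve at 0.134 and 0.0473 CPM.

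Of the capped pair, miR-320-3p was well measured and miR-484 was not. miR-320-3p had 755, 994 and 410 counts in 2VO replicates 1, 2 and 3, which are 82.3, 76.7 and 53.0 CPM. It had 1078, 773 and 564 counts in tilianin-treated replicates 1, 2 and 3, which are 117, 119 and 68.8 CPM. Treated replicates 1 and 2 lay above every 2VO library, whereas treated replicate 3 lay below 2VO replicates 1 and 2, so that the groups overlapped. On average this was 70.7 ± 15.5 CPM without and 102 ± 28.4 CPM with tilianin (mean ± SD, n = 3 libraries each). The log2 fold change was 0.52 (standard error 0.285), a fold of 1.44 with a 95% interval of 0.902 to 2.29, and the adjusted p of edgeR's quasi-likelihood test was 0.746 (unadjusted 0.108). The two-sided exact permutation test on log2(CPM + 1) gave p = 0.3, where 3 libraries against 3 cannot give less than 0.1.

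The spread of miR-320-3p between libraries was far beyond counting error. The coefficient of variation was 22.0% in the 2VO group and 28.0% in the treated group, whereas counting alone gives 3.73% and 3.52% at these depths. Among the fits that left out a library, the unadjusted p was lowest without treated replicate 3. There the log2 fold change was 0.73 and the unadjusted p of the same edgeR test 0.0261, and a block for replicate number gave an unadjusted p of 0.0485. In both fits the change was under the fold threshold, and edgeR's adjusted p was 0.300 and 0.735, where all the fits tried gave 0.300 to 0.997. The summed level of 4 red cell miRNAs, nearly all of it miR-486, was also higher in the treated libraries, at 338 to 881 CPM against 155 to 199 CPM, and its part in the values of miR-320-3p was not tested.

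The other arm of this hairpin, miR-320-5p, was listed with 0 counts in all 6 libraries. Against 4574 counts of miR-320-3p, a count of 0 allows the 5p arm up to 0.0656% of the reads of the hairpin. This arm bias is not particular to miR-320. Among 139 pairs of 5p and 3p rows with at least 1000 counts over both arms, 10 had 0 counts for the lesser arm, miR-320 itself among them. The median share of the lesser arm was 1.19%.

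miR-484 was read 0, 2 and 1 times in 2VO replicates 1, 2 and 3, and each tilianin-treated library had 0 counts. Summed over libraries this is 3 of 29365874 counts (0.102 CPM by library total, exact 95% binomial interval 0.0211 to 0.299) against 0 of 24376207 counts, for which the upper bound is 0.151 CPM. Both groups are at or under the limit that a count of 0 allows in each library, so no fold was computed and a difference was not detectable with these counts. The program that counted the reads is not named in the sources used here, and whether it lost reads of miR-484 or miR-451-5p was not tested. As an example chosen after its values were seen, miR-21-5p, a common miRNA of many tissues, totals 15 counts over the 6 libraries. Its level in this tissue was not measured in another way. Whether a count near 0 in this table means a low level in the tissue was not tested.

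**Figure D3:**
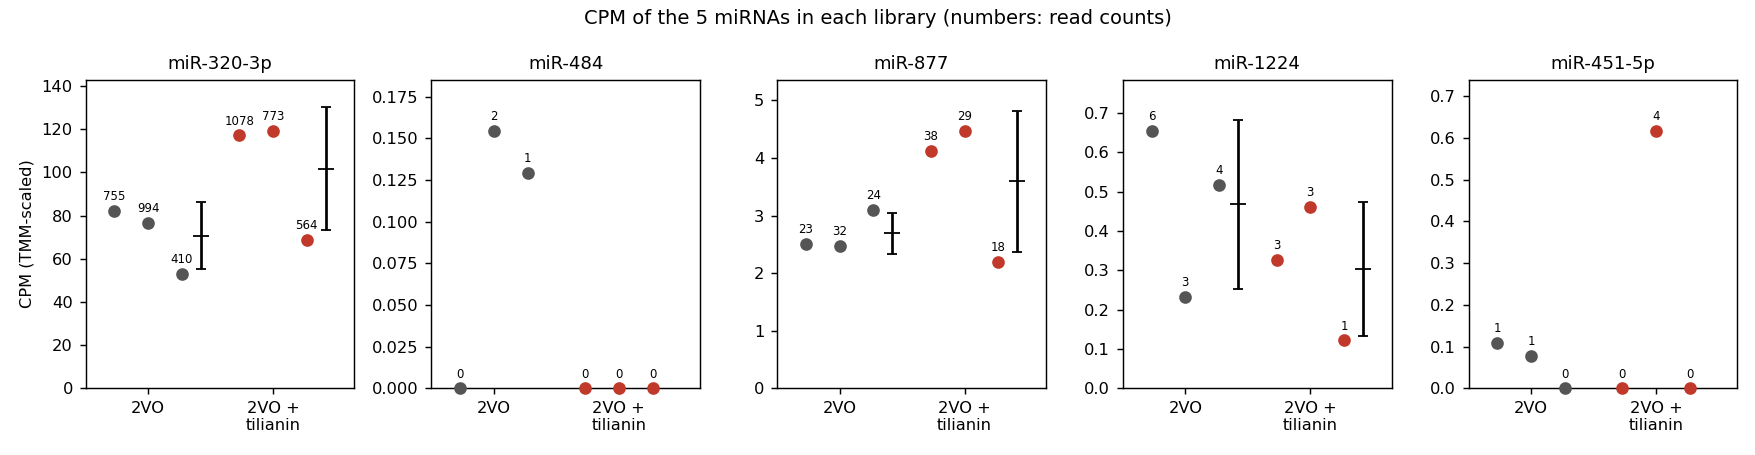
TMM-scaled CPM (y axis, from 0, with its own range in each panel) of the 5 miRNAs in each 2VO (grey) and tilianin-treated 2VO (red) library, with replicates 1 to 3 from left to right, the read count above each point, and mean and SD (n = 3) in black for the 3 tested miRNAs. For miR-320-3p and miR-877, treated replicates 1 and 2 stand above all 2VO libraries, and treated replicate 3 stands below 2 and 3 of them.

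The mirtrons were both detected in every library. miR-877, from the hairpin within Abcf1, had 23, 32 and 24 counts in 2VO replicates 1, 2 and 3, which are 2.51, 2.47 and 3.11 CPM. It had 38, 29 and 18 counts in tilianin-treated replicates 1, 2 and 3, which are 4.13, 4.47 and 2.20 CPM. Treated replicates 1 and 2 were the highest of the 6 libraries and treated replicate 3 the lowest. On average this was 2.69 ± 0.357 CPM without and 3.60 ± 1.22 CPM with tilianin (mean ± SD, n = 3 libraries each). On the log2 scale the fold change was 0.42, with a standard error of 0.356. The fold was 1.33 with a 95% interval of 0.746 to 2.39, and the adjusted p of edgeR's quasi-likelihood test was 0.814 (unadjusted 0.280). Without treated replicate 3 the log2 fold change was 0.67, with an unadjusted p of 0.0558 from the same edgeR test. The exact permutation test gave p = 0.4.

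miR-1224, from the hairpin within Vwa5b2, had 6, 3 and 4 counts in the 2VO libraries, again in the order of replicates 1 to 3. The treated libraries had 3, 3 and 1 counts. These are 0.654, 0.232 and 0.518 CPM and 0.326, 0.462 and 0.122 CPM. The groups overlapped, with 2VO replicate 1 highest and treated replicate 3 lowest. The log2 fold change was -0.59 (standard error 0.722), a fold of 0.664 with a 95% interval of 0.204 to 2.16, and edgeR's adjusted p was 0.861 (unadjusted 0.440). The exact permutation test gave p = 0.4. Treated replicate 3 was thus the lowest library for both mirtrons, and it was not the lowest for miR-320-3p, for which 2VO replicate 3 was.

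For the mirtrons the spread between libraries was at or below counting error in 3 of the 4 cases. For miR-877 the coefficient of variation was 13.2% in the 2VO group and 34.0% in the treated group, against 19.5% and 18.8% from counting. For miR-1224 it was 46.1% and 56.4%, against 48.0% and 65.5%. With counts this low, the interval of miR-1224 runs from a fold of 0.204 to one of 2.16.

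The mirtrons share a first base that is uncommon among miRNAs. Both begin with G, as do 87 of the 689 listed miRNAs with a RefSeq sequence (12.6%), against 36.1% that begin with U. Of the miRNAs that begin with G, 36 (41.4%) reached 10 counts in total. The shares were 57.1%, 64.0% and 63.1% for those that begin with A, C and U. The median level of the tested miRNAs was 12.1 CPM for G and 11.4, 13.0 and 87.6 CPM for A, C and U. The median for G was thus near those for A and C, and that for U was higher. miR-877 stood 24th and miR-1224 33rd of the 36. These shares describe the table and carry no test.

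miR-451-5p, the member made without Dicer, had 1, 1 and 0 counts in the 2VO libraries and 0, 4 and 0 counts in the treated libraries, each in the order of replicates 1 to 3. Its highest value, 0.616 CPM, was in treated replicate 2, the library that stood apart. Summed over libraries there were 2 counts in the 2VO group (0.0681 CPM by library total, exact 95% binomial interval 0.00825 to 0.246) and 4 in the treated group (0.164 CPM, interval 0.0447 to 0.420). These intervals overlap, and a difference was not detectable with these counts. Without treated replicate 2 the treated group had 0 counts. The other arm, miR-451-3p, had 1 count in all, in treated replicate 3.

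Other miRNAs of red blood cells were read beside it, since miR-451 is a marker of these cells. miR-144-3p, from the neighbouring hairpin of the same cluster, had 21, 3 and 2 counts in the 2VO libraries. It had 3, 23 and 4 counts in the treated libraries. It too was highest in treated replicate 2, at 3.54 CPM. Its log2 fold change of 0.60 had a standard error of 1.17, and it was -1.14 without that library. miR-144-5p had 1 count in all 6 libraries together. miR-486 was far above both, at 152 to 198 CPM in the 2VO libraries and 338 to 876 CPM in the treated libraries. Its highest value was also in treated replicate 2. It was called, with an adjusted p of 0.591 in edgeR's quasi-likelihood test (unadjusted 0.00328). The log2 fold change of miR-486 was 1.68 with all libraries and 1.16 without treated replicate 2. In that second fit the adjusted p of the same edgeR test was 0.0167, and it was 0.965 without 2VO replicate 2. DESeq2's Wald test on all libraries gave an adjusted p of 0.00782. Of this list of 4, miR-144-3p was also tested and was not called, and miR-451-5p and miR-144-5p had too few counts for a test. miR-451-5p was at 0 counts in 3 libraries in which miR-486 was between 198 and 406 CPM. Whether a count of 0 in this table means a low level in the tissue was not tested. The part of blood in these values was not tested.

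The comparison of the groups used all 454 miRNAs with at least 10 counts in total. A miRNA was called where its unadjusted p was below 0.05 and its log2 fold change was above 1 or below -1. Of the 5 members 3 could be tested, and 0 were called by edgeR's quasi-likelihood test, where 5.73% of all tested miRNAs were called. Also 0 of the 3 had an unadjusted p below 0.05 with edgeR, where 33 of all 454 tested miRNAs did. With DESeq2's Wald test 0 of the 3 were called, where 19 of all tested miRNAs were called higher and 3 lower. With limma-voom 0 of the 3 were called, where 6 were called higher and 3 lower. At such shares, 0 of 3 does not set the members apart from the other miRNAs. For 0 of the 3 did the groups not overlap, against 9.69% of all tested miRNAs. Their median log2 fold change was 0.42, against -0.03 over all tested miRNAs, with 2 positive and 1 negative. Without tilianin-treated replicate 2, the library that stood apart, the log2 fold changes were 0.41 for miR-320-3p, 0.27 for miR-877 and -0.91 for miR-1224. The bounds of the 95% intervals reach above 2-fold for all 3, and for miR-1224 they reach as far in the other direction, so these libraries do not show that the members were the same in both groups.

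**Figure D4:**
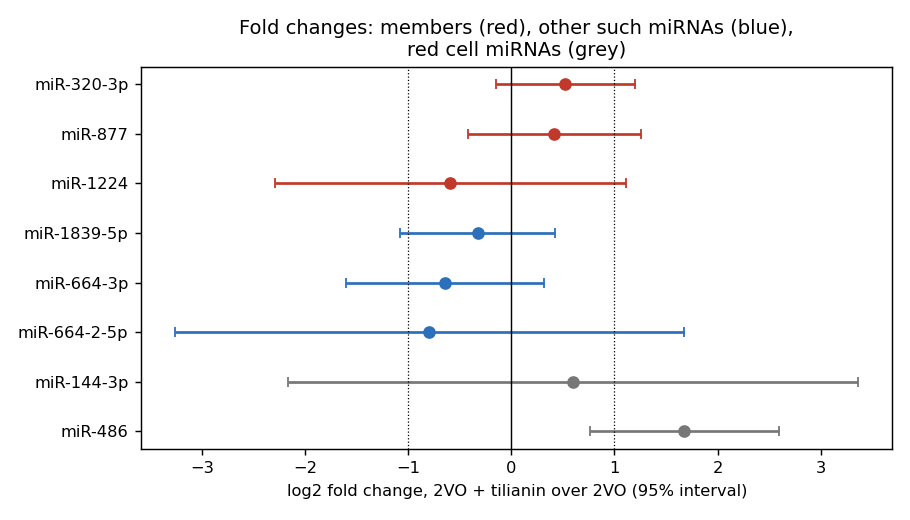
Log2 fold change of tilianin-treated 2VO over 2VO with its 95% interval for the 3 tested members (red), 3 other miRNAs from snoRNA-like hairpins (blue) and 2 red cell miRNAs (grey), with dotted lines at the fold threshold. The intervals of all 3 members cross 0, as do those of the other miRNAs except miR-486 at 1.68.

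Ratios within a library do not depend on scaling factors, and 3 pairs of tested members were compared in this way. To each count 1 was added, which weighs more where counts are low. The log2 ratio of miR-320-3p over miR-877 was 4.98, 4.91 and 4.04 in the 2VO libraries. In the treated libraries it was 4.79, 4.69 and 4.89. The treated libraries lay close together and inside the range of the 2VO libraries. The difference of the means was 0.15, with p = 1 in the two-sided exact permutation test (adjusted p = 1 over the 3 pairs). The log2 ratio of miR-320-3p over miR-1224 had a mean of 7.02 ± 0.832 in the 2VO group and 7.94 ± 0.298 in the treated group (SD, n = 3 each; exact permutation p = 0.2, adjusted 0.3). That of miR-877 over miR-1224 had means of 2.38 ± 0.635 and 3.15 ± 0.209 (SD, n = 3 each; exact permutation p = 0.2, adjusted 0.3). For both ratios over miR-1224 the difference, of 0.91 and 0.77, was larger than the SD of either group. But the groups overlapped, with 2VO replicate 2 at 7.96 and 3.04 and treated replicate 2 lower, at 7.60 and 2.91. The permutation p of 0.2 is thus above 0.1, the least that 3 libraries against 3 can give. With 0.5 count added in place of 1, the differences were 1.03 and 0.88. Both ratios rest on 1 to 6 counts of miR-1224 per library.

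Likeness between members could be described for the 3 tested ones. Over the 6 libraries the correlation of log2 CPM was 0.69 between miR-320-3p and miR-877, 0.08 between miR-320-3p and miR-1224 and 0.38 between miR-877 and miR-1224, as a description, since all values come from the same 6 libraries and the counts of miR-1224, at 1 to 6 per library, spread no more than counting error gives. The tested miRNAs most like miR-320-3p were miR-3589, miR-206-3p and miR-1912-3p, with correlations of 0.99, 0.93 and 0.92 over these libraries. Those most like miR-877 were miR-181a-2-3p, miR-423-3p and miR-450a-3p, at 0.95, 0.95 and 0.92. Those most like miR-1224 were miR-3068-5p, miR-31a-5p and miR-1839-5p, at 0.96, 0.91 and 0.80, where miR-1224 itself had 20 counts in all and miR-3068-5p 12. For each member these are the 3 highest values over all tested miRNAs, and over 6 libraries such maxima can be high without any link.

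A short list of other miRNAs known to skip a usual step was read beside the members. It held 7 rows, of the mirtron miR-702 and of miR-664 and miR-1839, whose hairpins lie in small nucleolar or Cajal body RNAs, and no row for miR-1291. The list is not complete, since miR-1843a, miR-3068 and miR-3084d, whose hairpins also carry snoRNA or scaRNA names in RefSeq, were not in it. Of the 7, 3 had 0 counts in every library, both arms of miR-702 among them, and 3 could be tested. miR-1839-5p, on a hairpin that RefSeq names Scarna15, had 34, 42 and 23 counts in the 2VO replicates and 24, 22 and 16 counts in the treated replicates. Its level of 2.98 CPM was the next below that of miR-877. Its log2 fold change of -0.33 had a standard error of 0.318. miR-664-3p had 17, 17 and 16 counts in the 2VO replicates and 13, 5 and 9 counts in the treated replicates. The fit gave it -0.64 on the log2 scale, with a standard error of 0.406. Its treated counts all lay below its 2VO counts, but in CPM the groups overlapped, with 1.41 CPM in treated replicate 1 against 1.31 CPM in 2VO replicate 2. miR-664-2-5p had 22 counts in total, and its value on that scale was -0.79 with a standard error of 1.05. With edgeR's quasi-likelihood test 0 of these 3 were called, and 0 had an unadjusted p below 0.05. Of all 454 tested miRNAs, 26 were called and 33 had such a p, so 0 of 3 does not set this list apart.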

How the data were processed

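The authors deposited raw read counts for each mature miRNA and library, without normalization. Libraries were made with the TruSeq Small RNA kit from total RNA. The submitters' processing notes name FastQC 0.11.2, Trimmomatic 0.36, cutadapt 1.14 and DESeq2 1.12.4. The aligner, miRNA reference, genome build and counting program are not given in the sources used here, nor is the treatment of reads that match several miRNAs. Some rows hold the same counts in every library, such as let-7a-1-3p and let-7c-2-3p. Library totals are sums over rows and may thus hold a read more than once. No member shares its counts with another row. Counts were mapped to samples by library code. Rows that summed to 10 counts or more entered edgeR's quasi-likelihood test, run with edgeR 4.0.16 under R 4.3.3 (alternatives with DESeq2 1.42.0 and limma 3.58.1), with TMM scaling, library sizes taken from all rows and the group as the single term. P-values were adjusted with the Benjamini-Hochberg method over all tested miRNAs. Approximate standard errors, and from them the 95% intervals, come from the F statistic of each log2 fold change. For single values the test was an exact permutation test, two-sided. A call needed an unadjusted p below 0.05 and a log2 fold change above 1 or below -1, the thresholds of the study's own screen. Hairpins were folded with RNAfold 2.7.2, and sequences came from RefSeq on GRCr8 (4 of 5 members matched). The code was tested on simulated data. Alternatives covered scaling, test, filter, prior count, replicate block and each library left out. The miRNAs named were the members, other rows of their hairpins, listed miRNAs with similar routes, red cell and brain markers, neighbours in level, and the 3 tested miRNAs with the highest correlation. Members and lists were chosen with earlier results of these data known. The sham libraries were not analysed here.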

Additional observations from a re-analysis of the deposited data

How the results depend on the processing

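With 8 other settings of scaling, test, filter, prior count or block and 6 fits that each left out a library, the 3 tested members kept the sign of their log2 fold change and 0 were called, though filterByExpr dropped miR-1224. The log2 fold change was 0.44 to 0.54 for miR-320-3p, 0.33 to 0.44 for miR-877 and -0.67 to -0.38 for miR-1224 over the other settings, and 0.35 to 0.73, 0.27 to 0.67 and -0.92 to -0.22 with a library left out. Over all tested miRNAs, 21 were called higher and 5 lower. The numbers higher were 6 with limma-voom, 9 with the replicate block and 7 to 29 with a library left out. The numbers lower were 2 with filterByExpr, 3 both with limma-voom and with the Wald test of DESeq2, 8 when scaled by library totals, and 2 to 5 with a library left out, and 9, 8, 7 and 9 were higher without tilianin-treated replicate 2 and without 2VO replicates 1, 2 and 3. The difference of the log2 ratio of miR-320-3p over miR-877 turned from 0.15 to -0.15 without 2VO replicate 3 (-0.15 to 0.31 over the 6 fits). The log2 fold change of miR-144-3p turned from 0.60 to -1.14 without tilianin-treated replicate 2 (-1.14 to 2.46). The cause was not tested. The replicate numbers come from the sample titles, and the library code of 2VO replicate 3 carries another number. These replicate numbers gave no clear pairing of the libraries, with correlations of deviations of -0.0891, 0.0134 and 0.192 for numbers 1, 2 and 3. Numbers 1 and 2 did not correlate best with themselves, whereas number 3 did. With 3 libraries per group these values cannot exclude a pairing. With the block, miR-320-3p had a log2 fold change of 0.51, miR-877 of 0.38 and miR-1224 of -0.59. Low counts limit miR-451-5p, miR-484 and miR-1224, at 6, 3 and 20 in all.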
